A study of Mus musculus with 16 samples.

Results

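The collagen genes of mouse white fat were followed across 16 RNA-seq libraries. Members were all genes whose symbol is Col, a type number, the letter a and a chain number, and whose level reached 1 FPKM (fragments per kilobase of transcript, scaled to the library's mapped fragments, a level per length) in at least 2 libraries. They are 27 of the 14023 genes in the table: 7 of fibrillar types, 6 of basement membrane types and 14 of other types. Col6a4, at 1.53 and 1.495 FPKM in its 2 highest libraries, and Col4a6, at 1.15 and 1.00, were just inside the threshold. Col6a4 reached 1 FPKM only in the 2 iWAT WT rosiglitazone libraries. Col4a6, Col6a5 and Col8a2 did so only in eWAT libraries, 2, 8 and 7 of them. Each is thus a member only through the group or depot where it is high, and its calls there are not independent of the rule. Col13a1 was just outside it, with 1.46 FPKM in its highest library and 0.964 in the next. No member was listed at 0 in any library.

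The mice carried wild-type PPARg (WT) or were PPARg-K107R mutants, whose lysine that accepts the small protein SUMO is an arginine. All had eaten chow for 10 weeks and then a high-fat diet, with 60% of calories from fat, for 19 weeks. Gavage for 1 week then gave either 10 mg/kg of rosiglitazone, a drug that activates PPARg, or 1% methylcellulose alone as vehicle. Epididymal fat (eWAT) and inguinal fat (iWAT) of each genotype and treatment make 8 groups of 2 libraries, and values below are given as replicate 1, then replicate 2. The labels do not say whether the libraries are separate mice, so p-values cover only the spread among these libraries, possibly technical, nor whether both depots came from the same mice.

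Collagens are proteins of 3 chains wound into a triple helix. Fibrillar collagens (types I, III, V and XXVII) assemble into the fibres that give connective tissue its strength, and fibroblasts and fat cell progenitors are known as their main source. Type IV chains form the meshwork of basement membranes, which in fat surrounds each fat cell and each capillary, and types XV and XVIII sit in or beside that membrane. Type VI makes beaded filaments around cells, is abundant in fat, and its alpha 3 chain gives rise to the signalling fragment endotrophin. Types XII, XIV, XVI and XX attach to other fibrils or matrix, type VIII forms short-chain networks, type XXIII spans the cell membrane and type XXVIII is known from peripheral nerve.

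Promoters are shown for the 5 members whose eWAT libraries lay wholly above their iWAT libraries, chosen after their values were seen: Col8a2, Col6a6, Col6a5, Col6a1 and Col4a6. Of the others, 22 overlapped between the depots and 0 lay wholly higher in iWAT. The share of all genes without such overlap was not computed, so these counts have no comparison. Col8a2, Col6a5 and Col4a6 are members through eWAT libraries alone. RefSeq's table (GRCm38.p6) matched 23 of the 27 members and gave 25 promoters. The Col8a2 stretch is chr4:126286544-126286792 on the plus strand. The Col6a6 stretch is chr9:105828161-105828335 on the minus strand. The Col6a5 stretch is chr9:105960644-105960893 on the minus strand. The Col6a1 stretch is chr10:76726169-76726294 on the minus strand. The Col4a6 stretch is chrX:141474077-141474326 on the minus strand. Each runs 5′ to 3′, holds no annotated exon, and has in capitals the GC box GGGCGG or its reverse complement, the letters that Sp1-type factors bind.
Col8a2: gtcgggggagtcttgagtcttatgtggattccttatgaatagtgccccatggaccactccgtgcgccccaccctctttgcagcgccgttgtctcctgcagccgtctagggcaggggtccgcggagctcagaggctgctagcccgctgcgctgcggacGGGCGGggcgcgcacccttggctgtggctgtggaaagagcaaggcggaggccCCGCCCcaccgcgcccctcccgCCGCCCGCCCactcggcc
Col6a6: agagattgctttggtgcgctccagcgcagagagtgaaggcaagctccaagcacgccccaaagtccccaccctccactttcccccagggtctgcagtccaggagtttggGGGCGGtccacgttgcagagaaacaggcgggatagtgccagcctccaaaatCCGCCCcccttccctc
Col6a5: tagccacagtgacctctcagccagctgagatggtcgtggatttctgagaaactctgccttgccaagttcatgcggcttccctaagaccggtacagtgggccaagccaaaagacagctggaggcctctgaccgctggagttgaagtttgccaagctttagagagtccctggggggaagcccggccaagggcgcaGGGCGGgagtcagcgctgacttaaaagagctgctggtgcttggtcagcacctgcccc
Col6a1: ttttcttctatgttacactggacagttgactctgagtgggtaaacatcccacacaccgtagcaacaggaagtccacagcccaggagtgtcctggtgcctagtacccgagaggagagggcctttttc
Col4a6: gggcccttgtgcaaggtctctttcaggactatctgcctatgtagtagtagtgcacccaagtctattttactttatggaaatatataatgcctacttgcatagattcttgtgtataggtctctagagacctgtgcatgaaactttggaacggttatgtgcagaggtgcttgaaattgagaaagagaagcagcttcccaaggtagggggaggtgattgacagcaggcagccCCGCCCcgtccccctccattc

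Capitals appear in 4 of these 5 promoters, and the Col6a1 stretch has none. Over the 250 bases before the start, on both strands, GGGCGG was found in 17 of the 25 collagen promoters (68%), against 32.7% of 32851 mouse promoters. The CCAAT box was found in 8 of 25 (32%), against 33.8% of all promoters. The TATAAA box was found in 1 of 25, that of Col3a1, against 12.4% of all promoters. The direct repeat that PPARg and its partner RXR are known to bind (AGGTCA, any 1 base, AGGTCA) was found in 0 of 25 collagen promoters and in 0.0335% of all promoters. A match describes letters only, and the absence of one says nothing of the factor.

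Depth is unknown, because FPKM carry no counts. FPKM summed to 411746 to 596519 per library. Both eWAT K107R vehicle libraries stood apart: 8 genes of the epididymis summed to 4296 and 3934 FPKM there, against at most 7.49 in any other library, and 7 epithelial genes to 83.7 and 104, against at most 15.98. The iWAT K107R vehicle libraries had the highest sums of 10 skeletal muscle genes, 128 and 145 FPKM, against 10.5 to 53.2 elsewhere. Libraries numbered 2 had a lower median FPKM over all genes (5.36 to 8.83) than those numbered 1 (8.95 to 9.61). Fat cell genes marked all libraries, though Fabp4, a fat cell lipid carrier, was listed at 0 in 10 of them: both eWAT K107R rosiglitazone libraries and all of iWAT.

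Collagens made up 0.567 to 0.780% of all FPKM in eWAT libraries and 0.434 to 0.753% in iWAT libraries. Col1a1, Col1a2, Col3a1, Col4a1, Col4a2, Col6a1 and Col6a2 held 73.8 to 82.3% of that sum in each library. Fibrillar genes took a median of 46.4% of collagen FPKM in eWAT (37.1 to 50.7%) and 40.7% in iWAT (35.9 to 46.4%). Basement membrane genes took 24.9% in eWAT (23.01 to 28.8%) and 32.0% in iWAT (26.9 to 37.7%). The other types took 27.9% in eWAT (26.1 to 34.8%) and 26.6% in iWAT (20.96 to 33.9%). These shares overlapped between the depots for each class.

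**Figure D1:**
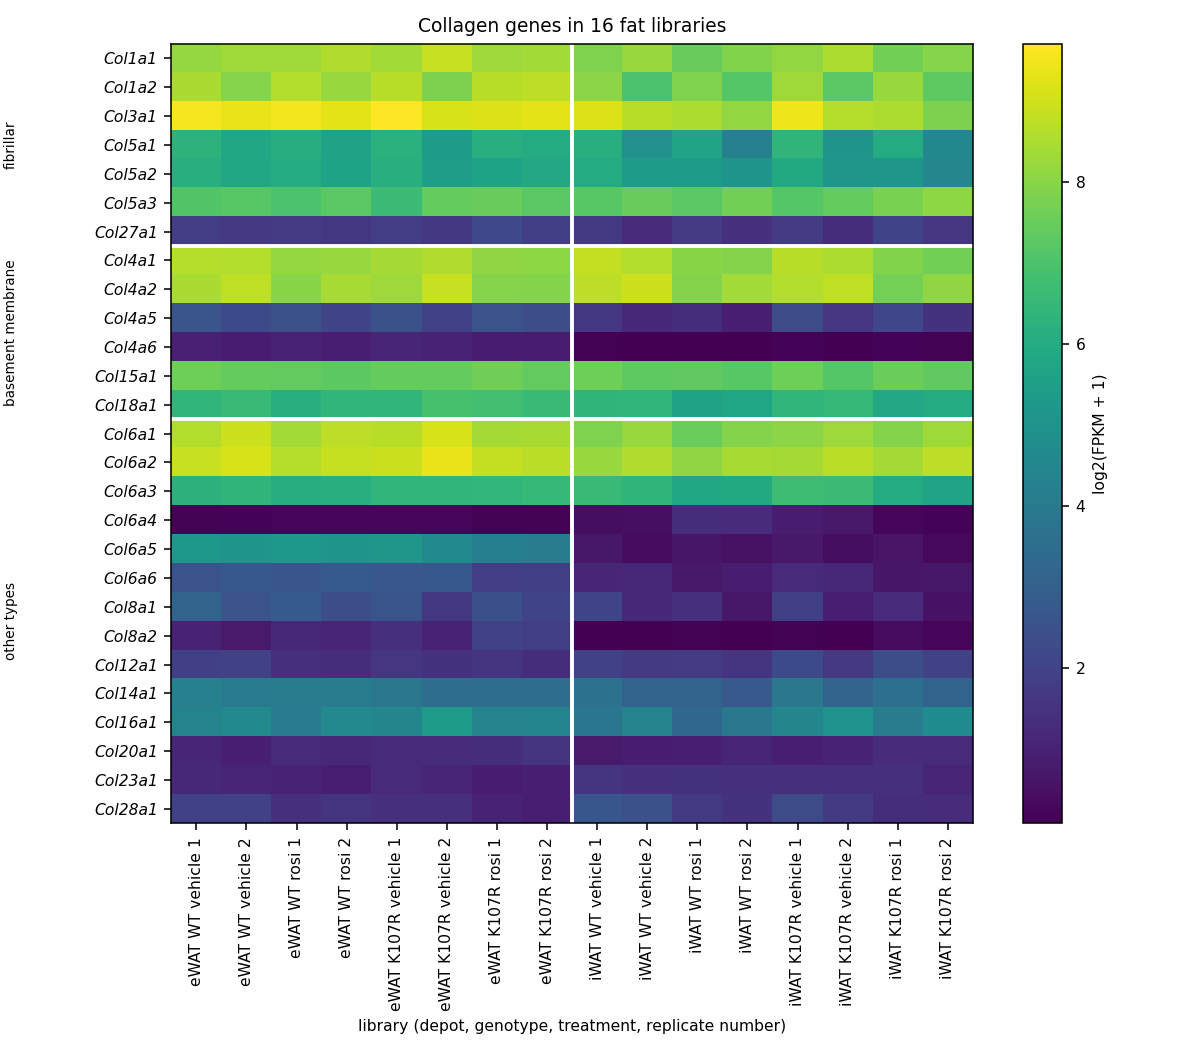
Level of 27 collagen genes (rows, grouped as fibrillar, basement membrane and other types) in 16 libraries (columns); colour is log2(FPKM + 1), and white lines part the classes and the depots. Col3a1 has the brightest cells, and Col4a6, Col6a5 and Col8a2 are dark across iWAT.

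Among fibrillar genes, Col3a1, the chain of type III (chromosome 1, 45311538 to 45349706, GRCm38, plus strand), had the highest FPKM, 565 to 836 in eWAT and 226 to 699 in iWAT. Col1a1 (chromosome 11, 94936224 to 94953042, plus strand) and Col1a2 (chromosome 6, 4504814 to 4541544, plus strand) encode the chains of type I, known as a trimer of alpha 1 and alpha 2 chains. Col1a1 lay at 174 to 472 FPKM and Col1a2 at 126 to 435. Of the type V chains, which start fibrils, Col5a3 lay at 102 to 265 FPKM, above Col5a1 (19.0 to 82.7) and Col5a2 (22.3 to 70.2) in all libraries. Col27a1 was at 1.32 to 3.59 FPKM.

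Col4a1 (chromosome 8, 11198423 to 11312826, minus strand) and Col4a2 (11312805 to 11449287, plus strand) lie head to head and share 22 bases of annotation. Their levels ranged over 203 to 449 and 207 to 501 FPKM. Col4a5 and Col4a6, head to head on the X chromosome with 1308 bases between them, were far lower, at 0.919 to 5.15 and 0.0704 to 1.15 FPKM. Col15a1 lay at 144 to 194 FPKM and Col18a1, the source of the fragment endostatin, at 48.7 to 118. In type VI, Col6a1 and Col6a2 lay at 181 to 556 and 276 to 691 FPKM, and Col6a3 at 51.7 to 104, which is 0.121 to 0.315 of the Col6a2 level. Col6a4, Col6a5 and Col6a6, alternative chains that resemble alpha 3, lie in a row on the minus strand of chromosome 9, 28810 and 27917 bases apart, and reached at most 1.53, 36.3 and 6.01 FPKM. The strand setting of the authors' counting is not given in the sources used here, so reads where Col4a1 and Col4a2 overlap cannot be assigned with certainty.

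Several collagens differed by replicate number in every group or nearly so. Col5a1 was lower in replicate 2 than in replicate 1 in all 8 groups (median log2 difference -0.99), and Col8a1 (-0.72) likewise. Col1a2 (-0.76), Col5a2 (-0.49) and Col3a1 (-0.45) were higher in replicate 2 in 1 of 8 groups each. Col16a1 (0.52), Col6a1 (0.39) and Col1a1 (0.36) were higher in replicate 2 in all 8 groups. The median over all genes was -0.309. The Col1a1 to Col1a2 ratio of FPKM was 0.669 to 0.878 in the 8 libraries numbered 1, 1.58 to 2.46 in the 4 iWAT libraries numbered 2, and 1.27 to 2.13 in 3 eWAT libraries numbered 2, while the eWAT K107R rosiglitazone library numbered 2 was at 0.754. Across the 27 collagens, which share these libraries, the replicate difference followed the GC content of the longest transcript with Pearson r 0.50 and Spearman rho 0.55. Across 12613 of the 13669 genes tested these were 0.49 and 0.55.

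**Figure D2:**
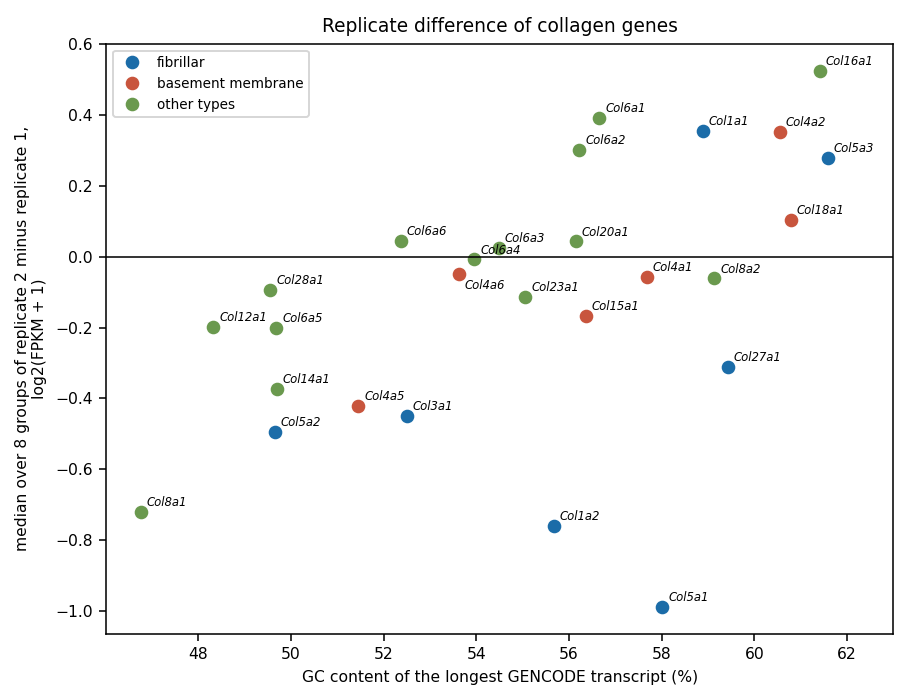
Replicate 2 minus replicate 1 in log2(FPKM + 1), as the median over 8 groups (vertical axis), against the GC content of each collagen gene's longest transcript in percent (horizontal axis); each point is 1 gene, coloured by class. Points rise to the right with r 0.50, and Col5a1 and Col1a2 lie lowest, at -0.99 and -0.76.

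The first comparison set the depots side by side over both genotypes and treatments. Collagens were higher in eWAT more often than lower: limma on log2(FPKM + 1), with Benjamini-Hochberg adjustment over 13669 genes, called 15 of 27 higher in eWAT and 4 lower at an adjusted p under 0.05. Over all genes it called 32.4%, with 19.9% higher and 12.5% lower, and 55.8% with the replicate number as a block, when 18 members were higher and 5 lower. The median log2 difference was 0.45 for the collagens and 0.10 for all genes. With each library rescaled by its median ratio these medians were 0.31 and -0.01, and 10 members were higher and 4 lower. The share of all genes called was not computed for rescaled libraries, here or below. In whole tissue, fewer cells of a type and less RNA per cell cannot be told apart.

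Of the 7 fibrillar genes, 4 were higher in eWAT and 0 lower. Col3a1 lay at 565 to 836 FPKM in eWAT (median 651, n = 8) and 226 to 699 in iWAT (median 384), so the depots overlapped. Its log2 difference was 0.77 ± 0.17 (SE), with a limma adjusted p of 0.0044. Col1a2 had medians of 372 and 193 FPKM (log2 0.75, limma adjusted p = 0.0432), Col5a2 of 57.2 and 37.3 (0.54, adjusted p = 0.0352) and Col1a1 of 326 and 244 (0.45, adjusted p = 0.0138). All of these overlap between the depots. With the replicate number as a block, Col5a1 (log2 0.56) and Col27a1 (0.20) also passed as higher and Col5a3 (-0.32) as lower, with adjusted p of 0.0116, 0.014 and 0.0106. Col5a3 had medians of 149 FPKM in eWAT and 175 in iWAT, the reverse order of the other type V chains. Rescaling ended the call of Col1a1 (adjusted p = 0.409), and leaving out 1 library ended that of Col1a2 in 11 and of Col5a2 in 9 of 16 cases (adjusted p up to 0.102 and 0.0842).

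Among the 6 basement membrane genes, 3 were higher in eWAT and 0 lower. Col4a6 ranged over 0.744 to 1.15 FPKM in eWAT (median 0.921) and 0.0704 to 0.120 in iWAT (median 0.0865), so every eWAT library was above every iWAT library (log2 0.80 ± 0.04, limma adjusted p = 1.34e-07). Col4a6 is a member through 2 eWAT libraries alone, among them K107R vehicle replicate 1 with its epididymis genes. Its neighbour Col4a5 had medians of 4.29 and 1.94 FPKM (log2 0.77, limma adjusted p = 0.00349), with overlap. Col18a1 had medians of 89.99 and 73.1 FPKM (log2 0.40, adjusted p = 0.00371), a call that rescaling ended (adjusted p = 0.364). The chains that make up most type IV collagen did not pass: Col4a1 had means of 328 and 318 FPKM, Col4a2 of 335 and 352, and Col15a1 of 173 and 168.

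Of the 14 other types, 8 were higher in eWAT and 4 lower. Col6a5 had the largest difference of all members, with 16.7 to 36.3 FPKM in eWAT (median 32.7) and 0.266 to 0.662 in iWAT (median 0.467). Its log2 difference was 4.31 ± 0.10, with a limma adjusted p of 1.59e-09. Col6a5 is a member through eWAT libraries alone. The neighbour Col6a6 lay at 2.51 to 6.01 and 0.595 to 1.33 FPKM (log2 1.51, adjusted p = 3.61e-08), again without overlap. The next gene in the row, Col6a4, went the other way, at 0.0938 to 0.203 FPKM in eWAT and 0.139 to 1.53 in iWAT (log2 -0.52, limma adjusted p = 9.26e-07). Col6a4 is a member through iWAT libraries alone. The Col6a5 to Col6a6 ratio of FPKM was 4.37 to 7.45 in eWAT and 0.257 to 0.845 in iWAT.

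The type VIII chains were both higher in eWAT. Col8a2 ranged over 0.733 to 2.82 FPKM there and 0.0567 to 0.273 in iWAT, without overlap (log2 1.15 ± 0.06, limma adjusted p = 2.40e-07). Col8a2, too, is a member through eWAT libraries alone. Col8a1 had medians of 4.59 and 1.29 FPKM (log2 1.21 ± 0.25, adjusted p = 0.00343). Col6a1 was the only abundant member without overlap, at 331 to 556 FPKM in eWAT and 181 to 326 in iWAT (log2 0.66 ± 0.13, limma adjusted p = 0.00229). Col6a2 (log2 0.47), Col14a1 (0.55) and Col20a1 (0.23) were higher too, and Col16a1 (0.30) with the replicate block only (adjusted p = 0.0105). Rescaling ended the calls of Col6a1 (adjusted p = 0.169), Col6a2 (0.352) and Col20a1 (0.314), while Col6a5, Col6a6, Col8a2 and Col8a1 passed with it.

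Higher in iWAT were Col28a1 (log2 -0.43, limma adjusted p = 0.0048), Col23a1 (-0.36, adjusted p = 0.00117) and Col12a1 (-0.33, adjusted p = 0.0334), beside Col6a4. Col28a1 had medians of 1.68 FPKM in eWAT and 2.26 in iWAT, Col23a1 of 1.07 and 1.65, and Col12a1 of 1.83 and 2.65. Col12a1 no longer passed without the eWAT K107R vehicle libraries (adjusted p = 0.0693), and these libraries ended no other of the depot calls: 15 were higher and 3 lower without them. It also failed in 11 of 16 cases of leaving out 1 library.

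Cell markers moved with depot as well. All 10 macrophage genes in the table were higher in eWAT, with sums of 3890 to 5057 FPKM against 964 to 1413, as were 7 of 8 mesothelial genes, with sums of 93.0 to 137 against 50.7 to 71.4. All 7 epithelial genes in the table were higher in eWAT, with sums of 7.59 to 15.98 FPKM outside the K107R vehicle libraries against 0.65 to 1.47. The mesothelial gene Upk3b had group means of 19.1 to 27.7 FPKM in eWAT and 0.0201 to 0.0371 in iWAT. All 8 Schwann cell genes were higher in iWAT, with sums of 51.5 to 106.8 FPKM against 12.4 to 20.8, in the same direction as Col28a1. Endothelial sums were 259 to 363 FPKM in eWAT and 383 to 700 in iWAT (6 of 10 lower in eWAT), and 1 of 12 fat cell genes was higher and 8 lower. The higher one is Fabp4, listed at 0 throughout iWAT, and the other 11 summed to 5838 to 9805 FPKM in eWAT and 9468 to 16510 in iWAT. Of 13 fibroblast and progenitor genes 4 were higher and 4 lower, with sums of 4585 to 6846 and 5087 to 9613 FPKM. Mural sums were 133 to 245 and 111 to 399 FPKM (2 higher and 4 lower of 11), and 7 of 10 muscle genes were lower in eWAT. Of 8 cartilage and tendon genes only 3 are in the table, summing to at most 3.07 FPKM in any library. The part of any of these in the collagen differences was not tested.

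**Figure D3:**
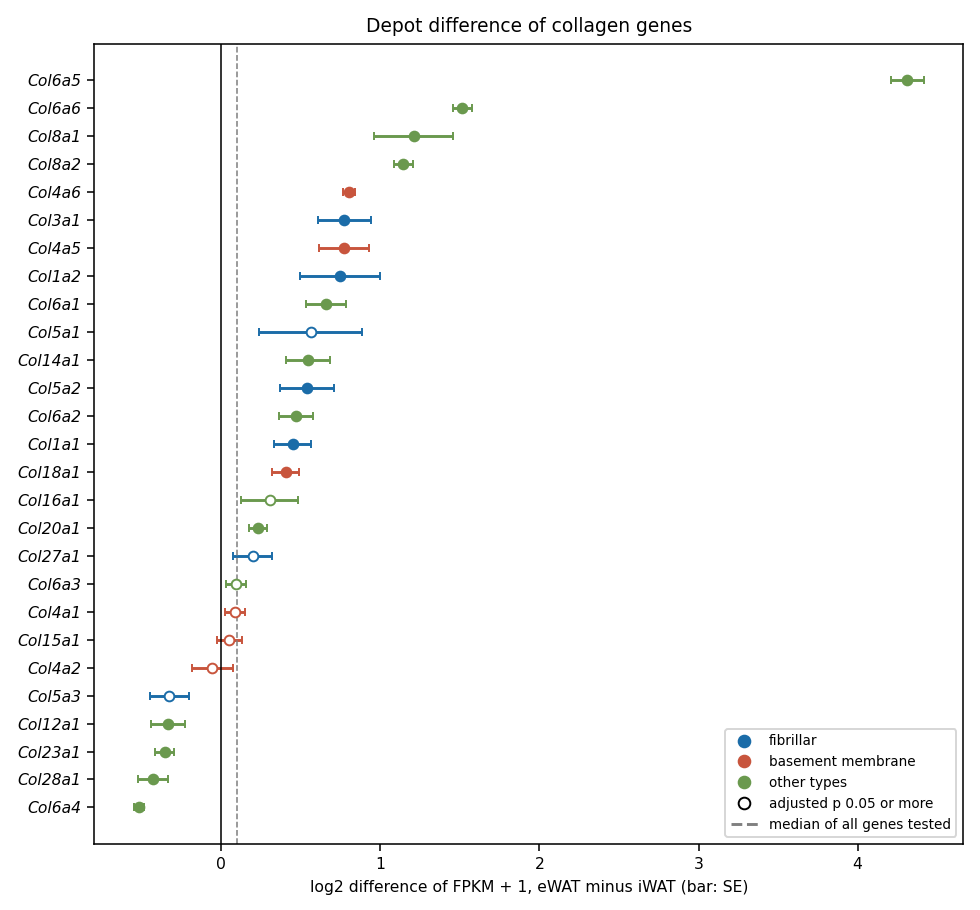
Difference of each collagen gene between depots, in log2(FPKM + 1), eWAT minus iWAT over 8 libraries each (points, with bars for 1 SE), coloured by class; filled points have a limma adjusted p under 0.05, and the dashed line is the median of all genes, 0.10. Col6a5 lies far to the right at 4.31, and Col6a4 lies lowest at -0.52.

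Genes that fold, cleave and cross-link collagen were mostly higher in eWAT, too, where 19.9% of all genes were higher and 12.5% lower. Of 18 genes of collagen folding and modification, 10 were higher and 1 lower, with a median of 0.43 on the log2 scale. The leading ones were Colgalt1, which adds galactose to collagen (log2 0.99), P3h4, part of a lysine-modifying complex (0.68), and Plod2, a lysyl hydroxylase (0.62). Of 11 genes of propeptide cleavage and cross-linking, 8 were higher and 1 lower, led by the propeptidase Adamts14 (0.89) and the cross-linking oxidases Loxl1 (0.73) and Loxl2 (0.67). Among 18 fibril-associated proteins 7 were higher and 2 lower: Fbln1 (2.17), Lum (1.68) and Dcn (1.1), a fibulin and 2 leucine-rich proteoglycans, were higher. Of 13 other basement membrane proteins 1 was higher and 4 lower, with the laminin chains Lama5 at -0.82 and Lama2 at 0.63 and the matrix glycoprotein Tinagl1 at -0.75. Of 9 receptors, 3 were higher, among them Lair1, an inhibitory receptor of leukocytes (2.2), and Antxr2 (0.87), and 1 was lower, the integrin chain Itga1 (-0.69). Of 16 TGF-beta genes 3 were higher, near the share of all genes, and 1 lower; the higher ones were the receptor Tgfbr1 (1.35) and the ligands Tgfb1 (1.31) and Tgfb3 (0.88). With the replicate block, 9 of the TGF-beta genes were higher and 2 lower, and 6 of the receptors higher and 2 lower.

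Rosiglitazone was then compared with vehicle in iWAT. Averaged over genotypes, 3 of the 6 basement membrane collagens fell, Col4a1, Col4a2 and Col18a1, and the others did not pass. In all, 6 of 27 members fell and 0 rose (5.36% of all genes were called, 2.25% lower and 3.11% higher), and with the replicate block 10 fell and 2 rose (16.2% of all genes). Median differences were -0.21 for the 27 members, -0.41 for the 6 basement membrane genes, -0.45 for the 7 fibrillar genes and -0.16 for the other types, against 0.02 over all genes. The sum over all collagens was 3005 to 3433 FPKM in the 4 vehicle libraries and 2266 to 2558 in the 4 rosiglitazone libraries.

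In WT, Col4a1 was at 449 and 386 FPKM with vehicle and 254 and 241 with the drug, and in K107R at 409 and 371 and then 233 and 203. Every treated library was below every vehicle library, and the averaged log2 difference was -0.79 ± 0.08 (limma adjusted p = 0.000426). The response passed in WT alone (-0.75, adjusted p = 0.0138) and in K107R alone (-0.84, adjusted p = 0.00343). Both of these calls use the spread of all 16 libraries. Neither held when limma was fitted to the iWAT libraries only (adjusted p = 0.3074 in WT and 0.1145 in K107R). Its partner Col4a2 was at 430 and 501 FPKM with vehicle and 242 and 332 with the drug in WT, and at 390 and 441 and then 207 and 273 in K107R. These groups did not overlap either (log2 -0.76 ± 0.18, limma adjusted p = 0.0399), and with the replicate block Col4a2 also passed in each genotype (adjusted p = 0.0147 in WT and 0.00463 in K107R). Col18a1 went from 82.8, 83.9, 85.2 and 88.7 FPKM with vehicle to 48.7, 52.5, 59.1 and 63.4 with the drug, in the order WT then K107R (log2 -0.60 ± 0.12, limma adjusted p = 0.015). Col15a1 did not pass, with means of 175 and 167 FPKM in WT and K107R vehicle and 155 and 174 with the drug.

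Of the other types, Col6a3 was at 95.0 and 82.0 FPKM with vehicle and 57.0 and 60.0 with the drug in WT, and at 104 and 102 and then 63.9 and 51.7 in K107R. The groups did not overlap (log2 -0.71 ± 0.09, limma adjusted p = 0.00107). Col28a1 fell from 5.33 and 4.52 FPKM to 2.26 and 1.84 in WT, and was at 3.97 and 2.25 and then 1.55 and 1.45 in K107R (averaged log2 -0.82, limma adjusted p = 0.0047). Col6a6 was at 1.19, 1.21, 1.33 and 1.28 FPKM with vehicle and 0.676, 0.820, 0.595 and 0.629 with the drug, again WT then K107R (log2 -0.42, limma adjusted p = 0.0162). The abundant type VI partners Col6a1 and Col6a2 did not pass: Col6a2 had means of 339 and 312 FPKM in WT and 381 and 385 in K107R, vehicle then drug.

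No fibrillar gene passed in iWAT without the block. Col3a1 was at 585 and 406 FPKM with vehicle and 369 and 285 with the drug in WT, and at 699 and 399 and then 369 and 226 in K107R. All treated libraries were below all vehicle libraries, but the replicates of a group lay far apart (log2 -0.73 ± 0.23, limma adjusted p = 0.134; 0.00503 with the replicate block). Col1a1 (-0.45, adjusted p = 0.00395 with the block) and Col5a2 (-0.60, adjusted p = 0.0193 with the block) passed only with the replicate block, as did Col8a1 (-0.53) among the lower members and Col6a4 and Col20a1 among the higher. The Col6a4 average joins a rise in WT (log2 0.87) with a fall in K107R (-0.56). Col5a3 had means of 161 and 159 FPKM with vehicle and 176 and 240 with the drug in WT and K107R, and did not pass.

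In WT iWAT alone, 1 member rose and 2 fell (1.68% of all genes were called; 1 and 5 with the replicate block, which called 6.98% of all genes and added Col4a2, Col6a3 and Col18a1). Col6a4 rose from 0.369 and 0.378 FPKM to 1.53 and 1.495 (log2 0.87 ± 0.07, limma adjusted p = 0.000342), and Col4a1 and Col28a1 fell. Col6a4 is a member only through these 2 WT rosiglitazone libraries. In K107R iWAT alone, 0 rose and 4 fell (4.21% of all genes were called, 2.28% lower and 1.92% higher; 0 and 9 with the replicate block, which called 12.4% of all genes and added Col1a1, Col3a1, Col4a2, Col18a1 and Col28a1). These were Col4a1, Col6a3 (log2 -0.83), Col6a4 (-0.56) and Col6a6 (-0.52). With libraries rescaled, without the block, Col4a1 still passed on average (adjusted p = 0.036) but not in WT (0.291) or K107R (0.145) alone, and Col6a3 (0.0623), Col6a6 (0.168), Col18a1 (0.311) and Col4a2 (0.337) lost their averaged calls. With rescaling and the block together, 12 members fell and 0 rose on average, a count with no share of all genes computed beside it.

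Leaving out any 1 of the 4 WT iWAT libraries ended the WT call of Col4a1 (adjusted p 0.0585 to 0.135), which held under the other 12 omissions. The averaged calls of Col4a2, Col18a1 and Col6a6 failed in 11, 5 and 5 of 16 omissions, with adjusted p up to 0.146, 0.0622 and 0.0784. The WT call of Col28a1 and the K107R call of Col6a6 failed in 14 of 16 each, with adjusted p up to 0.273 and 0.227.

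Markers of muscle and of the vessel wall were lower in the same libraries. The 10 skeletal muscle genes summed to 28.9 and 32.6 FPKM with vehicle and 14.8 and 19.0 with the drug in WT, and to 128 and 145 and then 35.7 and 53.2 in K107R. On average 5 of the 10 fell (median log2 -0.81), and 6 of 10 in K107R (-1.39). The 11 mural genes summed to 399 and 234 FPKM with vehicle and 209 and 158 with the drug in WT, and to 278 and 165 and then 174 and 111 in K107R, and 4 of 11 fell on average. The 10 endothelial genes summed to 700 and 569, 474 and 428, 536 and 419, and 465 and 383 FPKM in that order, and 1 fell. The 13 fibroblast and progenitor genes summed to 5870 and 7645, 5087 and 7150, 8001 and 9169, and 6961 and 9613 FPKM in that order. Of these genes 3 fell. Of 12 fat cell genes 3 rose and 0 fell. The fat cell sums were 9976 and 9468, 12513 and 13466, 11769 and 10312, and 16510 and 16509 FPKM, again in that order. The 8 Schwann cell genes summed to 81.9 and 51.5, 95.7 and 66.9, 91.5 and 62.9, and 106.8 and 61.3 FPKM in that order. Of these, 1 fell and 7 had a log2 difference above 0 (median 0.19), whereas Col28a1 fell. None of the muscle, mural, endothelial or fibroblast markers was at 0 in both libraries of a group. Their part in the fall of the collagens was not tested.

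**Figure D4:**
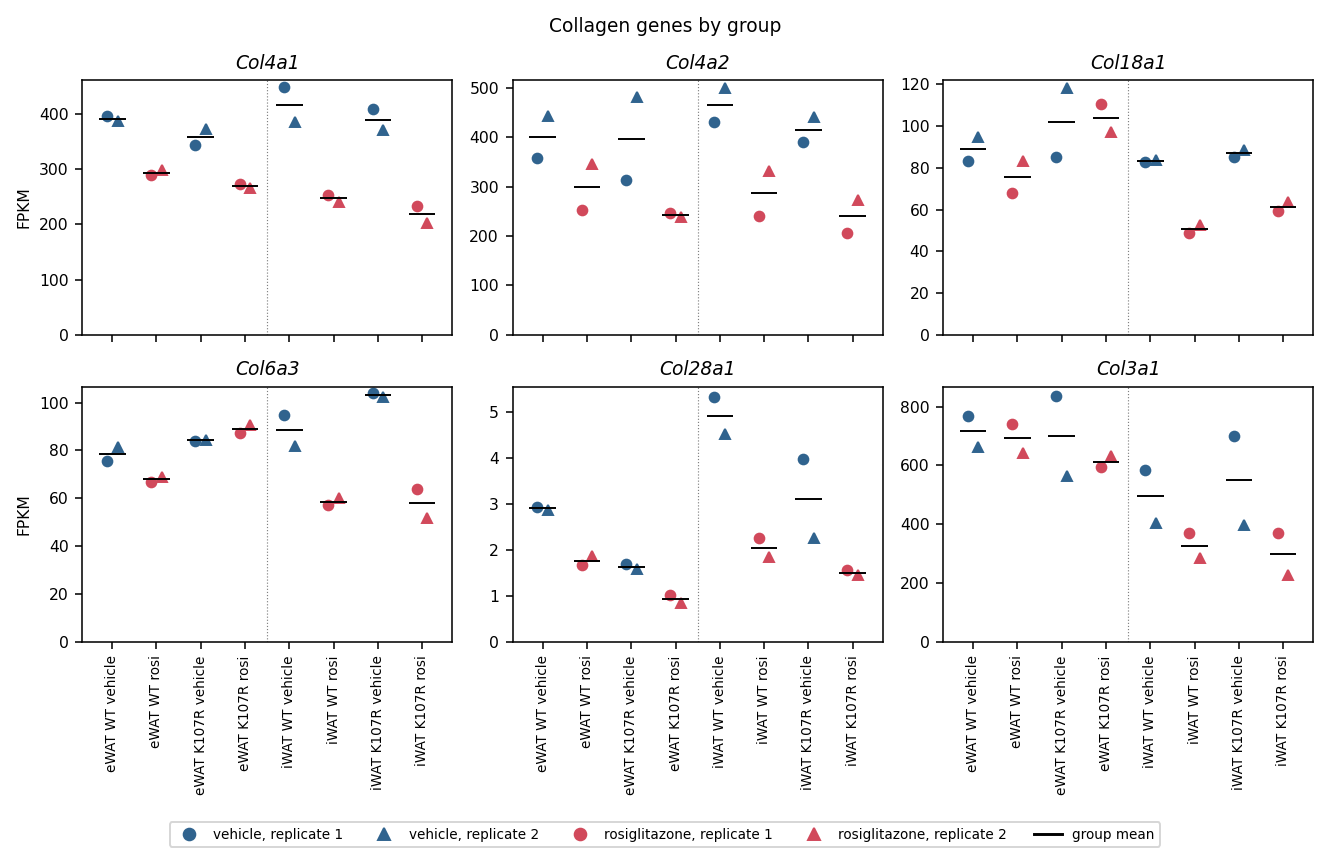
FPKM of 6 collagen genes in each library of the 8 groups (circles replicate 1, triangles replicate 2, bars the group mean; blue vehicle, red rosiglitazone; the dotted line parts eWAT from iWAT). In iWAT the red points lie below the blue for Col4a1, Col4a2, Col18a1, Col6a3 and Col3a1, and in eWAT they do so for Col4a1.

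In eWAT the drug response of the collagens was smaller in count. Over both genotypes 1 member rose and 2 fell (5.18% of all genes were called, 1.59% higher and 3.58% lower; 1 and 7 with the replicate block, which called 11.7% of all genes). Col4a1 was at 396 and 387 FPKM with vehicle and 289 and 298 with the drug in WT, and at 344 and 373 and then 273 and 266 in K107R. Every treated library was below every vehicle library (log2 -0.41 ± 0.08, limma adjusted p = 0.0172). Col6a6 (-0.41, adjusted p = 0.0184) and Col8a2 (0.46, adjusted p = 0.00933) also passed on average. With limma fitted to the eWAT libraries alone, the averaged calls of Col4a1 (adjusted p = 0.0562), Col6a6 (0.13) and Col8a2 (0.0915) were lost. A pseudocount of 0.1 also ended that of Col8a2 (0.0806). With the block, Col4a2 (-0.55), Col6a1, Col6a2, Col6a5 and Col28a1 (-0.47) passed as lower. Rescaling, which moved the all-gene median from 0.10 to 0.01, ended the averaged calls of Col4a1 (adjusted p = 0.245) and Col6a6 (0.152). Leaving out 1 library ended them in 7 and 4 of 16 cases (adjusted p up to 0.0769 and 0.097).

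The K107R vehicle libraries with epididymis genes are part of this average. In it 8 of 8 epididymis genes, 6 of 7 epithelial genes, 3 of 11 mural genes, 3 of 13 fibroblast and progenitor genes and 2 of 10 skeletal muscle genes were lower. Of 12 fat cell genes 4 were higher and 1 lower, Fabp4, which is listed at 0 in both K107R rosiglitazone libraries. The part of these in the collagen values was not tested.

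In WT eWAT, 0 of 27 members passed with limma, and 0 with the replicate block; 3 had an unadjusted p under 0.05 (0.446% of all genes were called, 2.47% with the block). The smallest p belonged to Col4a1 (log2 -0.41, adjusted p = 0.336) and to Col12a1, which was at 2.76 and 2.87 FPKM with vehicle and 1.61 and 1.51 with the drug (-0.58, adjusted p = 0.647). In K107R eWAT, 1 rose and 1 fell (4.89% of all genes were called). Col8a2 rose from 1.59 and 1.06 to 2.82 and 2.66 FPKM (log2 0.69 ± 0.12, limma adjusted p = 0.00588). That call was lost with a pseudocount of 0.1 (adjusted p = 0.0794) and with the eWAT libraries alone (0.0748). Col6a6 fell from 5.46 and 5.69 to 2.51 and 2.60 FPKM (-0.89 ± 0.12, limma adjusted p = 0.00105).

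With the replicate block 1 rose and 6 fell in K107R eWAT (10.9% of all genes were called), adding Col6a5 (-0.74), Col4a2 (-0.68), Col6a1, Col4a1 (-0.41) and Col4a6. Col6a5 was at 35.5 and 24.9 FPKM with vehicle and 18.1 and 16.7 with the drug. With libraries rescaled 1 rose and 3 fell. The vehicle arm of this comparison is the pair of libraries with epididymis genes, so the drug and that tissue signal cannot be told apart here, and leaving the pair out leaves no comparison. Without eWAT K107R rosiglitazone replicate 1, Col8a2 no longer passed (adjusted p = 0.0567). The mural genes summed to 245 and 155 FPKM with vehicle and 133 and 140 with the drug, and 3 of 11 fell, as did 3 of 13 fibroblast and progenitor genes, 4 of 10 skeletal muscle genes (sums of 28.7 and 34.8 and then 10.5 and 11.2 FPKM) and 7 of 7 epithelial genes.

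The difference between the depots' drug responses was tested directly. It passed for 1 of 27 members (2.21% of all genes were called, 3.83% with the block), Col6a3, with 0.65 ± 0.13 on the log2 scale (limma adjusted p = 0.0242). In eWAT Col6a3 was at 75.6 and 81.3 FPKM with vehicle and 66.8 and 68.9 with the drug in WT, and at 84.0 and 84.5 and then 87.1 and 90.7 in K107R, whereas in iWAT it fell in K107R and on average. The call was lost in 12 of 16 omissions of 1 library (adjusted p 0.0137 to 0.0861 over all of them) and with rescaling (adjusted p = 0.878). No depot difference passed for Col4a1, Col4a2 or Col18a1, so their responses were not shown to differ between depots.

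K107R was compared with WT in each depot and treatment. In vehicle eWAT 0 of 27 members passed with limma (3.35% of all genes were called), and 2 had an unadjusted p under 0.05. These were Col28a1, at 2.94 and 2.88 FPKM in WT and 1.69 and 1.58 in K107R (log2 -0.57, adjusted p = 0.221), and Col8a2, at 1.06 and 0.733 and then 1.59 and 1.06 (0.29, adjusted p = 0.459). With the replicate block Col28a1 (adjusted p = 0.0451) and Col8a1 (-0.75, adjusted p = 0.0143) passed as lower (8.3% of all genes were called), and with libraries rescaled Col8a2 passed as higher (0.00921). The K107R libraries here are the pair with epididymis genes, and genotype and that signal cannot be told apart.

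In rosiglitazone eWAT, 1 member was higher in K107R and 1 lower (0.907% of all genes were called). Col8a2 was at 2.82 and 2.66 FPKM in K107R and 1.21 and 1.18 in WT (log2 0.77 ± 0.12, limma adjusted p = 0.0147). Col6a6 was at 2.51 and 2.60 FPKM in K107R and 5.11 and 6.01 in WT (-0.88 ± 0.12, limma adjusted p = 0.00734). With the block Col6a5 passed as lower as well, at 18.1 and 16.7 FPKM in K107R and 35.7 and 32.8 in WT (-0.94, adjusted p = 0.00228; 3.47% of all genes were called). The calls of Col8a2 and Col6a6 stood without the eWAT K107R vehicle libraries. Both were lost with the eWAT libraries alone (adjusted p = 0.187 and 0.127), and that of Col8a2 with a pseudocount of 0.1 (0.131). Leaving out 1 of the 4 libraries compared ended the call of Col8a2 each time (adjusted p 0.111 to 0.147), and that of Col6a6 for both K107R libraries and WT replicate 2 (0.0685 to 0.102). Rescaling ended that of Col6a6 (0.162) and added those of Col6a5 and Col14a1 as lower, for 1 higher and 2 lower in all. Mesothelial genes summed to 111 and 112 FPKM in K107R and 137 and 131 in WT, and 1 of 8 was lower, whose part was not tested.

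In vehicle iWAT 0 members passed with limma (0.578% of all genes were called), and 2 had an unadjusted p under 0.05. Col6a4 was at 0.369 and 0.378 FPKM in WT and 0.791 and 0.649 in K107R (log2 0.32, adjusted p = 0.078; 0.0318 with the replicate block, which called 2.12% of all genes), and Col28a1 at 5.33 and 4.52 and then 3.97 and 2.25 (-0.55, adjusted p = 0.556). The same K107R libraries had the high muscle sums, 128 and 145 FPKM against 28.9 and 32.6. In rosiglitazone iWAT Col6a4 alone was called, and it was lower in K107R (4.13% of all genes were called). It was at 0.193 and 0.139 FPKM in K107R and 1.53 and 1.495 in WT (log2 -1.11 ± 0.07, limma adjusted p = 1.02e-05). Only these 2 WT libraries made Col6a4 a member. With the block Col16a1 (0.83), Col4a5 (0.67) and Col6a1 (0.42) also passed as higher in K107R (9.36% of all genes were called), and with libraries rescaled 3 were higher and 1 lower. In the same comparison 6 of 10 skeletal muscle genes were higher in K107R, with sums of 35.7 and 53.2 FPKM against 14.8 and 19.0, and 2 of 11 mural genes were lower; their part was not tested.

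Whether the drug response differed between genotypes was tested as an interaction, K107R response minus WT response. In eWAT it passed for Col6a6 (log2 -0.96 ± 0.17, limma adjusted p = 0.0109; 2.53% of all genes were called). Col6a6 was at 4.87 and 5.58 FPKM in WT vehicle and 5.11 and 6.01 in WT rosiglitazone, but at 5.46 and 5.69 and then 2.51 and 2.60 in K107R. Col6a5 had the same order of groups, with WT at 36.3 and 32.5 and then 35.7 and 32.8 FPKM, and passed with the replicate block (-0.74, adjusted p = 0.0389; 4.20% of all genes were called). Rescaling ended the call of Col6a6 (adjusted p = 0.17), as did leaving out WT vehicle replicate 1 (0.0689), WT rosiglitazone replicate 2 (0.061) or K107R rosiglitazone replicate 1 (0.06). The K107R vehicle libraries with epididymis genes are 1 arm of this test, so genotype and that signal cannot be told apart.

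In iWAT the interaction passed for Col6a4 (log2 -1.43 ± 0.09, limma adjusted p = 5.13e-05; 0.966% of all genes were called, 2.53% with the block). Its level rose with the drug in WT and fell in K107R. The interaction call held under each alternative run, with 1 member called in each. With the iWAT libraries alone, neither the WT rise (limma adjusted p = 0.0975) nor the K107R fall (0.0626) passed. Col6a4 is a member only through the 2 WT rosiglitazone libraries of this test, so the test is not independent of that choice. The K107R vehicle libraries of this test are the pair with the high skeletal muscle sums, 128 and 145 FPKM. In the same interaction 2 of 10 skeletal muscle genes were lower and 0 higher. The part of that signal in the Col6a4 values was not tested. The level of Col6a4 is low throughout, at most 1.53 FPKM, and how many reads that stands for is unknown.

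**Figure D5:**
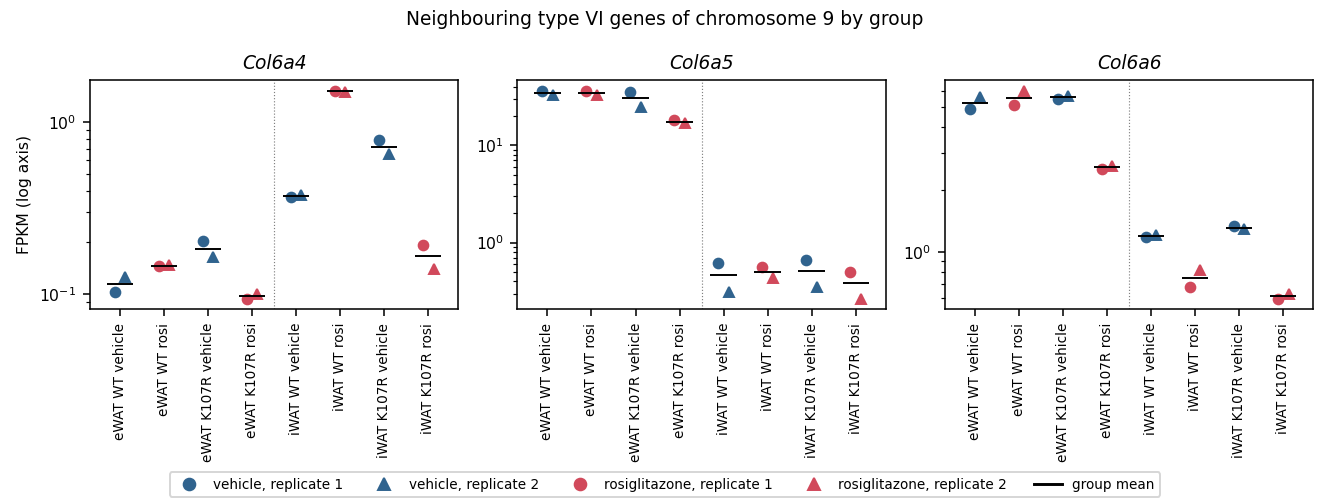
FPKM on a log axis of the neighbouring genes Col6a4, Col6a5 and Col6a6 in each library of the 8 groups (circles replicate 1, triangles replicate 2, bars the group mean; blue vehicle, red rosiglitazone; the dotted line parts eWAT from iWAT). Col6a4 in iWAT is highest in WT rosiglitazone, at 1.53 and 1.495, and Col6a5 and Col6a6 in eWAT are lowest in K107R rosiglitazone.

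Other matrix genes were read in the same drug comparisons, in which 2.25% of all genes fell in iWAT and 3.58% in eWAT. On average over genotypes in iWAT, 0 of 13 other basement membrane proteins rose and 5 fell, with a median of -0.42. They included the linker Nid2 (log2 -1.1; 31.7, 25.9, 26.1 and 19.5 FPKM with vehicle and 15.02, 13.3, 9.99 and 8.19 with the drug, WT then K107R), the laminin chain Lamb3 (-0.99) and perlecan, Hspg2 (-0.55). With the replicate block 1 rose and 8 fell. In eWAT 0 rose and 4 fell, led by Lamb3 (-1.03), Nid2 (-0.87) and Hspg2 (-0.38). Nid2 and Lamb3 passed in both depots with libraries rescaled too, while Hspg2 did not.

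Among 18 fibril-associated proteins 0 rose and 4 fell in each depot, and with the replicate block 1 rose and 9 fell in iWAT and 0 rose and 6 fell in eWAT. In iWAT these were led by Thbs1, a thrombospondin (log2 -1.70), the microfibril protein Fbn1 (-0.98) and Dpt (-0.74), and in eWAT by Comp (-1.72), Thbs1 (-0.81) and Fbn1 (-0.54). Of 11 genes of propeptide cleavage and cross-linking 3 fell in iWAT, the enhancer Pcolce2 (-1.01), the propeptidase Adamts2 (-0.66) and Bmp1 (-0.36), and 1 in eWAT, Pcolce2 (-0.87). With the block these became 6 and 3. Of 9 receptors 2 fell in iWAT, the uptake receptor Mrc2 (-1.39) and the kinase Ddr1 (-0.81), and Ddr1 alone fell in eWAT (-0.87). Of 18 folding genes 0 passed in iWAT, where their median was -0.09, and 1 fell in eWAT, the prolyl hydroxylase P3h2 (-0.59). With the block, 1 folding gene rose and 3 fell in iWAT, and 2 rose and 1 fell in eWAT. Of 16 TGF-beta genes the binding protein Ltbp3 alone fell, in iWAT (-0.57) and in eWAT (-0.48). With the block 2 TGF-beta genes fell in iWAT, 2 rose and 1 fell in eWAT, and 2 receptors fell in each depot. Lists of 9 to 18 genes are too short for a single gene to be set against the share of all genes that fell.

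These genes were also compared between genotypes. In rosiglitazone iWAT, where 4.13% of all genes were called, the lysine-modifying P3h4 (log2 0.87) and the chaperone Fkbp10 (0.63) among 18 folding genes, and Thbs1 (1.16) and Fn1 (0.56) among the fibril-associated, were higher in K107R, as was 1 of 16 TGF-beta genes. In vehicle eWAT, where 3.35% were called, 1 of the 18 folding genes was higher in K107R, P3h4 (0.94). With the replicate block 5 of the fibril-associated genes were higher in rosiglitazone iWAT and 2 of the folding genes in vehicle eWAT. The K107R libraries of vehicle eWAT are the pair with epididymis genes, so genotype and that signal cannot be told apart there.

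Over the 16 libraries, the genes most like the mean standardised level of Col1a1, Col1a2 and Col3a1 were Kdelr3 (Pearson r 0.98), Meg3 (0.96) and Sh3pxd2b (0.95). Of the other members Col4a5 (0.87), Col4a6 (0.86) and Col6a5 (0.85) were most like it. The libraries share depot and replicate number, so these values are a description.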

How the data were processed

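RNA of eWAT and iWAT was measured in 16 libraries; per the labels' protocols, 4 ug of total RNA went into a stranded mRNA kit read as 75-nt single ends. The authors deposited FPKM values. Cufflinks 2.2.1, TopHat2 2.0.12 and CASAVA 1.8.2, on mm10, are named per the submitters' processing notes; annotation, strand setting and scaling are not given in the sources used here. Values were used as deposited, with group and number from the labels.

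limma 3.58.1 (R 4.3.3) fitted log2(FPKM + 1) with 1 mean per group and a mean-variance trend to 13669 genes that reached 1 FPKM in 2 libraries or more, for 14 contrasts, and was tested on simulated data. The pseudocount of 1 understates changes of low genes. Same-numbered libraries deviated together in 28 of 28 pairs of groups (r 0.121 to 0.791). The number was taken to pair libraries in the replicate block only, and the main fit leaves that pairing out. The labels do not say what the number stands for. Alternatives were a pseudocount of 0.1, no filter, libraries rescaled by median ratio, the replicate block, each depot alone, no eWAT K107R vehicle libraries, and each library left out. Rescaling with the block was added after seeing the data.

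Members and gene lists were chosen with earlier results of these data known. Named genes were up to 10 called members per direction for depot, up to 5 elsewhere (the 2 of smallest p where none passed), always the abundant chains, and up to 3 called genes per list; 1 such gene is not reported here. Coordinates are from GENCODE's GRCm38 annotation and promoters from RefSeq.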

Additional observations from a re-analysis of the deposited data

Results flagged for a closer look

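Flagged here are differences in drug response that passed limma's adjusted p. The genotypes differed for Col6a6 in eWAT (K107R response minus WT response, log2 -0.959) and for Col6a4 in iWAT (log2 -1.43). The depots differed for Col6a3 (eWAT response minus iWAT response, log2 0.645). The Col6a6 value in eWAT rests on K107R vehicle libraries with epididymis genes at 4296 and 3934 FPKM. The Col6a4 value in iWAT rests on K107R vehicle libraries with skeletal muscle genes at 128 and 145 FPKM. The Col6a3 value uses both pairs. Col6a4 is a member only through the 2 iWAT WT rosiglitazone libraries, which its interaction uses. Groups of 2 libraries are too small for a search for outlying samples.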

How the results depend on the processing

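Of 43 calls of a member in a comparison, 0 were lost with the replicate block or without the filter, 4 with a pseudocount of 0.1, 18 with libraries rescaled, 2 with rescaling and the block, 17 of 23 with the depot's libraries alone (fewer samples) and 2 of 36 without the eWAT K107R vehicle libraries. No direction reversed under any of these, nor in 688 omissions of 1 library from these calls, of which 118 lost the call. The members that the replicate block added are named beside the results. Shares of all genes called were computed only for the fits without and with the replicate block. The counts under the other settings therefore have no such comparison.

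For rosiglitazone in WT eWAT, 2 members passed with rescaling and the block against 0. In K107R eWAT, 2 became 1 with a pseudocount of 0.1 or the depot alone, 4 rescaled, 7 with the replicate block and 10 with both. In WT iWAT, 3 became 6 with the block, 0 with the depot alone and 10 with rescaling and block. In K107R iWAT, 4 became 9 with the block, 0 with the depot alone and 9 with rescaling and block. Averaged over genotypes, 3 in eWAT became 8 with the block, 1 with the depot alone and 11 with both, and 6 in iWAT became 12, 3 and 12. For genotype in vehicle eWAT, 0 became 1 rescaled, 2 with the block and 4 with both; in rosiglitazone eWAT, 2 became 1 with a pseudocount of 0.1, 0 with the depot alone and 6 with rescaling and block. In vehicle iWAT, 0 became 1 with the block or without the eWAT K107R vehicle libraries and 3 with rescaling and block, and in rosiglitazone iWAT 1 became 4 rescaled, 4 with the block and 4 with both. The eWAT interaction went from 1 to 2 with the block, 0 with the depot alone and 3 with rescaling and block, and the depot difference of the response from 1 to 0 rescaled and 6 with both. The causes were not tested.

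Leaving out 1 library gave 16 to 19 depot calls; for rosiglitazone 0 to 0 in WT eWAT, 1 to 3 in K107R eWAT, 1 to 3 in WT iWAT, 3 to 4 in K107R iWAT, 1 to 4 over both genotypes in eWAT and 3 to 6 in iWAT; for genotype 0 to 1 in vehicle eWAT, 0 to 2 in rosiglitazone eWAT, 0 to 1 in vehicle iWAT and 1 to 1 in rosiglitazone iWAT; and 0 to 1 for the eWAT interaction, 1 to 1 for the iWAT interaction and 0 to 1 for the depot difference of the response. A library left alone in its group is assumed to vary like the others. With 2 libraries per group and no counts, calls at low FPKM carry an unknown counting error.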
